A study of Homo sapiens with 6 samples.

Results

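GNAS is the imprinted gene on chromosome 20 that encodes Gsα, the stimulatory α subunit of heterotrimeric G proteins. Its splice junctions were taken from 6 junction tables of K562 cells by position: plus strand, both intron ends inside the hg19 span of the gene. This gave 69 of the 780566 junctions in the series. Of these, 59 carried at least 1 uniquely mapped read and 10 were listed for multi-mapped reads alone. The outermost intron bases were 57415942 and 57486010 on chromosome 20 (hg19). A donor is given by the first base of its intron and an acceptor by the last.

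K562 is an established human chronic myeloid leukaemia line with erythroid features. Per the labels, 3 libraries carried a U2AF1 wild type knock-in and 3 carried U2AF1 S34F, a substitution of phenylalanine for serine in a zinc finger of this splicing factor, which helps to recognise 3′ splice sites. The control is thus itself an edited line, while how S34F was introduced is not given in the sources used here. Poly(A)+ RNA was sequenced from both groups, and no clone or culture is named for the replicates. If the replicates are not separate cultures, the p-values measure only the spread between these 6 libraries. If each group is a single clone, genotype and clone cannot be told apart, even with separate cultures. The base change itself is not visible in junction counts, so the genotype labels were taken as given.

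Markers of the labelled cell line were present. Junction reads inside 6 genes expected in K562 (HBG1, HBG2, HBE1, HBZ, GATA1 and TFRC) summed to 2576 to 4118 in wild type and 3736 to 5748 in S34F, per 1000000 unique spliced reads. Among them, embryonic ε-globin (HBE1) ranged from 43.7 to 90.1 in wild type and was at 1282, 143 and 180 in S34F replicates 1, 2 and 3. Embryonic ζ-globin (HBZ) ranged from 119.5 to 243.2 and from 398.1 to 544.4. Neither globin overlapped between the groups, while the other 4 genes did, and their part in the GNAS results was not tested. Of all single junctions tested for level, 19.5% did not overlap between the groups, and no such share was computed for whole genes. Adult β-globin (HBB) stayed at 0.0401 to 0.609, and the B cell gene MS4A1 was at 0 in every library. The 2 T cell genes summed to 11.1 to 49.9 in wild type and 6.90 to 55.5 in S34F, nearly all of it from CD3D. Libraries held 18074706 to 39279169 unique spliced reads, of which 12818 to 37085 lay on GNAS. S34F replicate 2 was the shallowest library and S34F replicate 3 the deepest.

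Gsα couples hormone and neurotransmitter receptors to adenylyl cyclase, which makes cyclic AMP. The locus has several promoters whose first exons are all spliced to the common exon 2: from upstream to downstream, the exons of NESP55 (a secretory protein made from the maternal allele), XLαs (a longer Gsα form made from the paternal allele), A/B or 1A (a mostly noncoding first exon of the paternal allele) and exon 1 of Gsα itself. Exon 3 is an alternative exon that distinguishes the long and the short form of Gsα, both of which are active G proteins.

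The transcribed structure was read from the junctions. Exon 2 spanned 57470667 to 57470739 (73 nt), exon 3 spanned 57473996 to 57474040 (45 nt, or 15 codons, so that skipping it keeps the reading frame), and exon 4 spanned 57478586 to 57478640 (55 nt). Exons 5 to 12 followed between 57478727 and 57485456, and the acceptor of exon 13, the last, was at 57485737. Among internal exons 2 to 12, exon 3 was the one often skipped. Over all 6 libraries, junctions spanning exon 3 held 1558 reads, compared with 4612 for the mean of its inclusion junctions. Junctions spanning any of the other 10 internal exons held at most 2 reads per exon, or 0.0297% for exon 2 and less for the others.

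Exon 3 was included more often in S34F. The inclusion level is the mean of the reads joining exon 2 to exon 3 and exon 3 to exon 4, divided by that mean plus the reads joining exon 2 directly to exon 4. It was 64.3%, 65.9% and 60.2% in wild-type replicates 1, 2 and 3, and 82.2%, 79.7% and 82.95% in S34F replicates 1, 2 and 3. The groups did not overlap, and a gap of 13.8 percentage points separated them. The group means were 63.5% ± 2.9 and 81.6% ± 1.7 (SD, n = 3 each), so that S34F was higher by 18.1 percentage points. In the fit over all 19272 cassette exon and junction combinations of the genome, log2 odds of inclusion were higher by 1.36 (SE 0.31), with an adjusted p of 0.0197 from edgeR's quasi-likelihood test and Benjamini-Hochberg adjustment.

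An event was called when its adjusted p was under 0.05 and the group means differed by at least 10 percentage points. Of the 4 GNAS combinations tested as cassettes, 1 was called, exon 3 between exons 2 and 4. In the same fit 2.74% of all combinations were called, 1.03% with higher inclusion in S34F. Groups that did not overlap were common: they occurred in 29.2% of all combinations. The size of the GNAS change was less common. A difference at least as large in either direction was seen in 468 other combinations (2.43%), while the median absolute difference was 1.75 percentage points.

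The call was lost when any one of the S34F libraries was left out. Without S34F replicate 1, 2 or 3 the adjusted p (edgeR) was 0.073, 0.0763 and 0.13. With all 6 libraries the call was also lost with limma on log2 odds (adjusted p = 0.123), with the replicate block (edgeR, 0.0655) and with no low-count filter (edgeR, 0.0561), and it held with DESeq2 (adjusted p = 0.0112). In these fits log2 odds lay between 1.29 and 1.44.

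**Figure D1:**
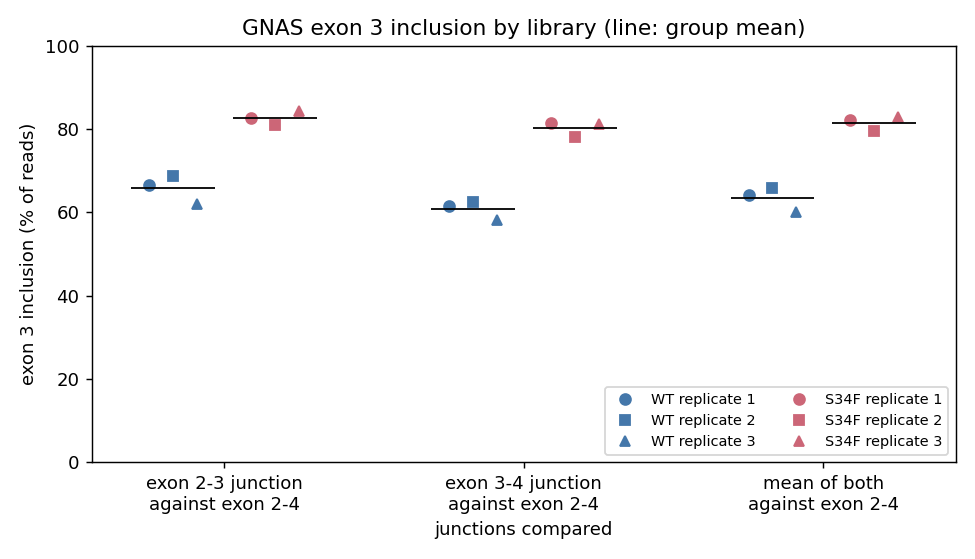
GNAS exon 3 inclusion in percent for each of the 6 libraries, computed from the upstream inclusion junction, the downstream one and the mean of both; horizontal lines are group means (n = 3 each). By all 3 measures the S34F libraries sit above the wild-type libraries, with the means of both junctions at 63.5% and 81.6%.

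**Figure D2:**
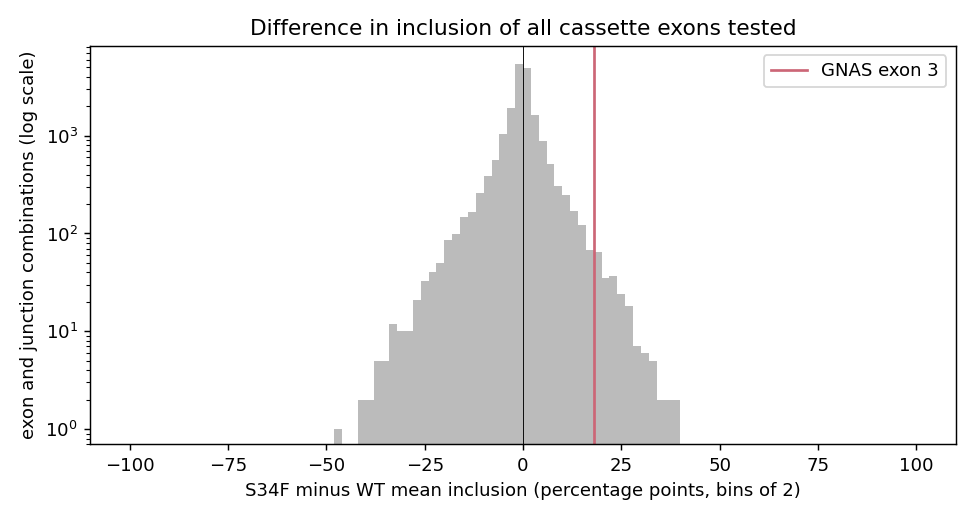
Difference in mean inclusion, S34F minus wild type, for all 19272 cassette exon and junction combinations tested, in bins of 2 percentage points with a log count axis. The line marks GNAS exon 3 at 18.1 percentage points, on the right flank of a distribution centred near 0.

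The reads behind exon 3 were plentiful in each library. The junction from exon 2 to exon 3 (intron 57470740 to 57473995) had 582, 622 and 448 unique reads in wild type and 1016, 573 and 1800 in S34F. The junction from exon 3 to exon 4 (57474041 to 57478585) had 469, 471 and 378 in wild type, compared with 929, 485 and 1451 in S34F. The skipping junction from exon 2 to exon 4 (57470740 to 57478585) had 292, 283 and 273 in wild type, compared with 211, 135 and 334 in S34F. Inclusion reads thus outnumbered skipping reads in every library, by a wider margin in S34F.

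Both inclusion junctions showed the difference on their own. From the upstream junction alone, inclusion was 65.8% ± 3.4 in wild type and 82.7% ± 1.7 in S34F. From the downstream junction alone it was 60.7% ± 2.3 and 80.3% ± 1.8 (n = 3 each). The level was lower from the downstream junction in each of the 6 libraries, and the groups stayed apart by both measures.

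The same reads can be viewed from each splice site. Of the reads leaving the exon 2 donor, 66.1%, 68.1% and 61.96% went to exon 3 in wild type, and 82.7%, 80.9% and 84.0% in S34F. The exact 95% intervals (Clopper-Pearson, counting error only) were 64.9% to 71.1% for the highest wild-type library and 77.8% to 83.8% for the lowest S34F library. In the fit over 51522 junctions for acceptor usage this choice of exon 3 gained 1.33 in log2 odds (SE 0.31), at an edgeR adjusted p of 0.0164. Direct joining to exon 4 was at 33.96% ± 3.5 in wild type and only 17.3% ± 1.7 in S34F, with log2 odds of -1.30 (SE 0.32) and an edgeR adjusted p of 0.0189. The call on exon 3 was lost with DESeq2 (adjusted p = 0.145), with limma (0.165) and with no low-count filter (0.123). It was also lost without S34F replicate 1, 2 or 3 (edgeR adjusted p = 0.0679, 0.0626 and 0.123). These 2 were the GNAS junctions called among 5 tested, where 2.11% of all junctions were called. Seen from the exon 4 acceptor, exon 3 supplied 60.1% of the reads in wild type and 79.8% in S34F, and exon 2 supplied 38.9% and 19.5%; both shares changed at an edgeR adjusted p of 0.0263 (log2 odds 1.40 and -1.39, SE 0.33 each). These 2 were the calls among 10 GNAS junctions tested for donor usage, where 0.934% of all junctions were called. With limma, 0 of all 48269 junctions in donor usage passed the adjusted threshold, so both calls were lost. Their values under the other settings are not given here. These tests share their reads with the cassette test and add no independent evidence.

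Fewer reads left exon 2 than entered it, and by unequal amounts. Reads leaving exon 2 were 67.6%, 67.0% and 68.7% of those entering it in wild type, and 81.2%, 79.0% and 82.0% in S34F. Reads entering exon 4 were 53.2%, 50.7% and 55.5% of those from exon 4 to exon 5 in wild type, and 64.2%, 68.9% and 69.2% in S34F. For exon 3 itself, reads leaving were 82.0% to 90.4% of reads entering in wild type and 82.4% to 92.9% in S34F, and the groups overlapped. The first 2 ratios, which were chosen after the values were seen, separated the groups (exact permutation test, two-sided, p = 0.1 each; adjusted p = 0.5 over 15 such values), and this design cannot give a p below 0.1. Their part in the exon 3 result was not tested directly, but the result can be set over all reads entering exon 2. On that basis the exon 2 to exon 3 junction held 44.3% ± 1.6 of the wild-type reads and 66.7% ± 2.5 of the S34F reads, and the exon 2 to exon 4 junction held 23.0% ± 2.6 and 13.9% ± 1.1 (n = 3 each). The difference was then 22.4 percentage points for the inclusion junction and -9.09 for the skipping junction.

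An acceptor in intron 3 had a smaller share of reads in S34F, by less than the minimum for a call. It lies at 57475003, is annotated, and competes with exon 4 for the exon 3 donor. Of the reads leaving exon 3, 6.57%, 7.65% and 6.67% went to it in wild type (33 of 502, 39 of 510 and 27 of 405), and 1.59%, 3.77% and 2.16% in S34F (15 of 944, 19 of 504 and 32 of 1483). The groups did not overlap, as was the case for 25.2% of all junctions in acceptor usage, but the interval of the highest S34F library (2.28% to 5.82%) overlapped those of all wild-type libraries. With log2 odds of -1.64 (SE 0.40) and an edgeR adjusted p of 0.0192, it passed the adjusted threshold, as did 4.63% of all junctions. With a difference of -4.46 percentage points, S34F minus wild type, it stayed under the 10-point minimum and was not called. The adjusted p was 0.173 with DESeq2, 0.151 with limma and 0.108 with no low-count filter (edgeR). By edgeR it was 0.103 without S34F replicate 1, 0.135 without S34F replicate 3 and 0.0664 without wild-type replicate 2.

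The intron 3 acceptor was also reached from exon 2, skipping exon 3, though rarely. This junction had 6, 9 and 2 reads in wild type and 2, 0 and 8 in S34F. The groups overlapped, and the difference did not pass the test (log2 odds -1.50, SE 0.70, edgeR adjusted p = 0.227). In S34F replicate 2, 0 of 708 reads leaving exon 2 went there.

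Part of the RNA that used the intron 3 acceptor went on to exon 4. Donors at 57475053 and 57475086, both unannotated in their junction to exon 4, would close exons of 49 and 82 nt that start at 57475004. They carried 5 and 39 reads over all libraries. Reads leaving these donors were 17.9%, 16.7% and 24.1% of those entering the acceptor in wild type and 23.5%, 26.3% and 32.5% in S34F, with overlapping groups (two-sided exact permutation p = 0.2, adjusted p = 0.5). As a cassette between exons 3 and 4, the 82 nt exon was included at 4.33% in wild type and 1.61% in S34F. Its inclusion count is a mean of 165 reads from exon 3 to the acceptor and 39 from 57475086 to exon 4. Most of these reads are those of the intron 3 acceptor test above, so this cassette adds no independent evidence. The edgeR adjusted p of this cassette, 0.0367 (log2 odds -1.53, SE 0.41), passed the adjusted threshold, as 5.76% of all combinations did, but not the 10-point minimum. Between exons 2 and 4 the same exon stood at 2.18% and 2.02% (log2 odds 0.02, SE 0.89, edgeR adjusted p = 0.993). Its donor supplied 0.863% and 0.517% of the reads entering exon 4 (log2 odds -0.68, SE 0.57, edgeR adjusted p = 0.59). Of these 3 tests, only the one between exons 3 and 4 passed the adjusted threshold. Their values under the alternative settings are not given here. The junction from 57475086 was the single unannotated GNAS junction with a read in every library.

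**Figure D3:**
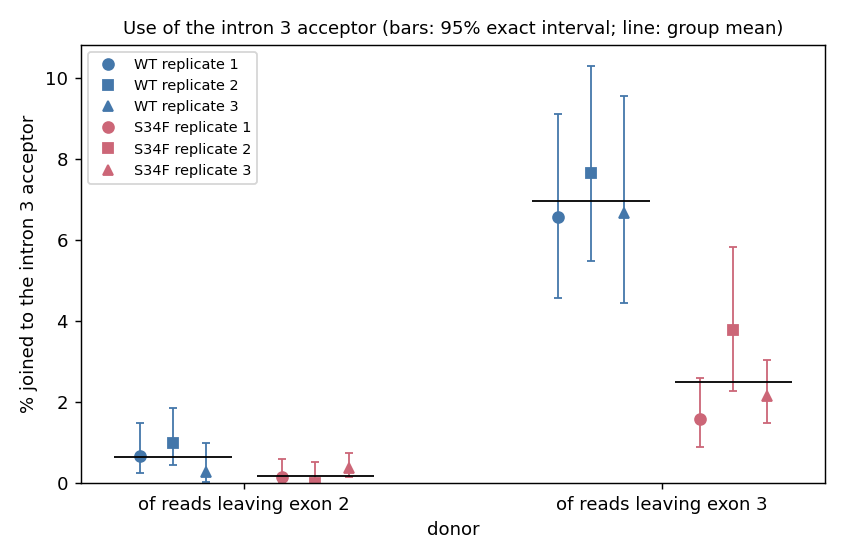
Percent of reads leaving the exon 2 donor and the exon 3 donor that were joined to the intron 3 acceptor, by library, with exact 95% intervals for counting error and group means as lines (n = 3 each). For exon 3, wild type lies at 6.57% to 7.65% and S34F at 1.59% to 3.77%; for exon 2 the groups overlap.

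The choice of first exon was read at the exon 2 acceptor, 57470666, which received 8743 unique reads. Of 22 donors listed there 18 were annotated, and 18 had a unique read. Exon 1 of Gsα, with its donor at 57466921, dominated in every library. It supplied 94.8%, 96.5% and 96.3% of the reads in wild type and 96.8%, 97.7% and 96.2% in S34F. The groups overlapped and the change did not pass the test (log2 odds 0.39, SE 0.37, edgeR adjusted p = 0.648). The estimate was 0.19 without wild-type replicate 1 and 0.23 without S34F replicate 2, and ranged up to 0.57 without the other libraries.

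Imprinted promoters often lie in CpG islands, and in this locus their methylation distinguishes the parental alleles. To show the DNA at both ends of the listed starts, the 250 bases before the most upstream and the most downstream of the 6 GNAS starts in the RefSeq promoter table (GRCh38.p14, plus strand) are printed, with CG dinucleotides, the sites of DNA methylation, in capitals. These positions belong to another build than the junctions and were not joined to them. Which first exon each start belongs to was therefore not determined. Neither printed window should be read as the promoter of Gsα, which may not be shown here.
GNAS_start_1, chr20:58839498-58839747: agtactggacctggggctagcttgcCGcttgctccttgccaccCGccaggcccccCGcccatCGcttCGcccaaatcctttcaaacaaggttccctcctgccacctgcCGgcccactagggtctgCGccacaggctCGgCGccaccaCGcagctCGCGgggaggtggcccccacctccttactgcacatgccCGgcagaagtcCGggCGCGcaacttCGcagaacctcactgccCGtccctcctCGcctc
GNAS_start_6, chr20:58888930-58889179: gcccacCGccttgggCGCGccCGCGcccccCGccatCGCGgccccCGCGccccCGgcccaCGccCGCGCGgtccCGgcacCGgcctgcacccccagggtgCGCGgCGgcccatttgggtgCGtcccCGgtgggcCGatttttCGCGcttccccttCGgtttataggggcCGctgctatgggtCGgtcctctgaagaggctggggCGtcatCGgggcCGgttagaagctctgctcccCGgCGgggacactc
The search string was CG, which reads the same on both strands. The first window held 19 CG and the second 33, compared with a median of 11 over 35116 windows of the same length. At least as many were found in 34.6% and 8.15% of all windows. The other 4 GNAS windows held between 9 and 27. Methylation was not measured in these libraries.

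The A/B first exon was the second source of reads. A block of 9 annotated donors, 57463874 to 57464605, lies between the XLαs region and the exon 1 donor, the place of A/B in the gene. The block supplied 54 of 1304, 36 of 1364 and 32 of 1053 reads entering exon 2 in wild type, which is 4.14%, 2.64% and 3.04%. In S34F it supplied 34 of 1513, 16 of 896 and 71 of 2613, which is 2.25%, 1.79% and 2.72%. Wild-type replicate 2 lay below S34F replicate 3, and the two-sided exact permutation p was 0.2 (adjusted p = 0.5).

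Within the block most reads came from 1 donor. The donor at 57464409 had 149 of the 243 block reads, and the one at 57464605 had 54. The donor at 57464605 had 14, 9 and 10 reads in wild type and 10, 1 and 10 in S34F, which is 0.894% ± 0.21 and 0.385% ± 0.27 of the reads entering exon 2. Its change did not pass the test (log2 odds -1.11, SE 0.53, edgeR adjusted p = 0.281). The leading donor stood at 1.79% ± 0.52 and 1.56% ± 0.31 (log2 odds -0.18, SE 0.41, edgeR adjusted p = 0.875). The remaining 7 donors of the block had at most 18 unique reads each. Beside its unique reads the block held 73 multi-mapped reads, which were not counted.

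First exons of NESP55 and XLαs were close to undetected. The 5 annotated donors upstream of the A/B block, from 57415942 to 57431269, summed to 13 unique reads over all libraries, beside 19 multi-mapped reads that were not counted. Wild-type libraries had 2, 1 and 2 of the unique reads and S34F libraries had 1, 0 and 7, at most 0.268% of the reads entering exon 2 in any library. The donor at 57415942 had no unique read, and the one at 57430389 had 1 beside 9 multi-mapped reads. From this donor 2 further unique reads, both in wild-type replicate 1, led to an unannotated acceptor at 57466868, upstream of the exon 1 donor. A count of 0 among 896 reads, as in S34F replicate 2, allows a share of up to 0.335%. Largest overhangs at these donors were 2 to 17 nt, where the exon 1 donor reached 50 nt.

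Donors within intron 1 made up most of the rest, and 3 reads came from a donor just upstream of exon 1's. The annotated donor at 57467265, 344 bases downstream of the exon 1 donor, had 39 reads and the annotated one at 57467562 had 22. Together with 3 unannotated donors they supplied 0.702% ± 0.28 of the wild-type reads entering exon 2 and 0.74% ± 0.16 of the S34F reads (n = 3 each), with overlapping groups. Multi-mapped reads were not counted. The donor at 57467265 had 70 of them, more than its unique reads, and the one at 57467562 had 7. Neither annotated donor passed the test (edgeR adjusted p = 0.807 and 0.842). In all, 0 of the 7 first exon donors tested changed at an edgeR adjusted p under 0.05, as 2.04% of all junctions did in donor usage. Of the 7, 1, the donor at 57464605, had an unadjusted edgeR p under 0.05. So did 8329 of all 48269 junctions in donor usage, so this was not unusual. DESeq2 and limma gave no call for the exon 1, 57464409 and 57464605 donors either.

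**Figure D4:**
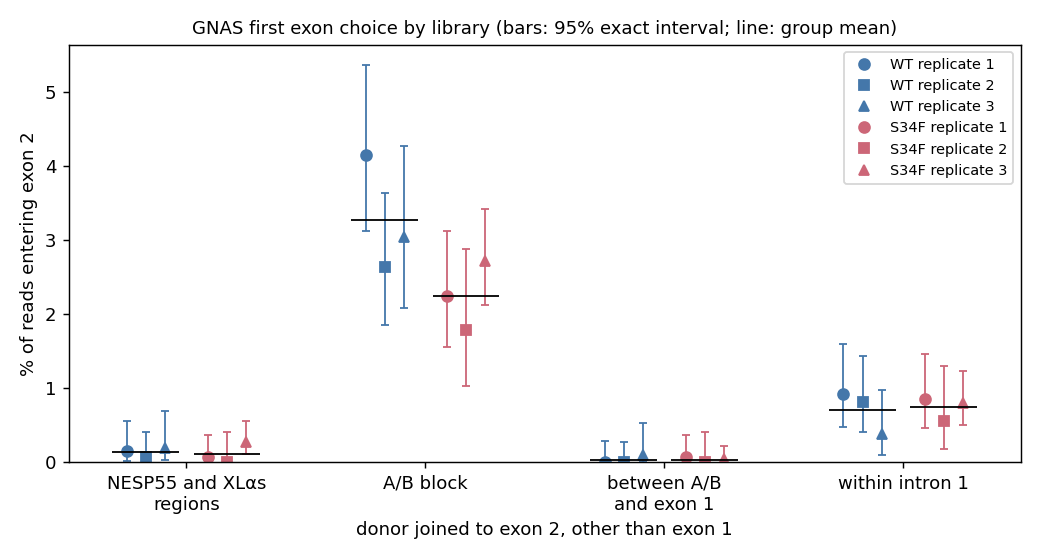
Percent of reads entering exon 2 that came from donors other than exon 1, by library, with exact 95% intervals for counting error and group means as lines (n = 3 each). The A/B block is highest, at 1.79% to 4.14%, and the groups overlap in every category.

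The level of GNAS as a whole was similar in the group means, with a wider spread in S34F. All GNAS junctions together held 803, 815 and 813 reads in the wild-type libraries and 1035, 709 and 944 in the S34F libraries, per 1000000 unique spliced reads. Wild type lay within the range of S34F (two-sided exact permutation p = 0.4, adjusted p = 0.6). In bulk RNA, fewer expressing cells and less RNA per cell cannot be told apart.

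Levels were also tested junction by junction, after TMM scaling. The 9 junctions from exon 4 to exon 13 showed changes between -0.02 and 0.11 in log2 fold (SE 0.16 to 0.19, edgeR adjusted p from 0.813 to 0.987). The junction from exon 1 to exon 2 showed 0.16 (SE 0.16, edgeR adjusted p = 0.69). Around exon 3 the estimates were 0.74 (SE 0.16) for exon 2 to exon 3, 0.83 (SE 0.16) for exon 3 to exon 4 and -0.59 (SE 0.17) for exon 2 to exon 4. Junctions with fewer reads stood at -0.79 (SE 0.32) for exon 3 to the intron 3 acceptor and -0.93 (SE 0.57) for the A/B donor at 57464605. None of the 16 GNAS junctions tested passed over all 116337 junctions, of which 0.275% were called. The edgeR adjusted p was 0.0765, 0.0579 and 0.162 for the 3 junctions around exon 3. An unadjusted edgeR p under 0.05 was found for 4 of the 16, and for 16158 of all 116337 junctions. With DESeq2 both inclusion junctions passed (adjusted p = 0.00623 and 0.00201), and without S34F replicate 2 the exon 3 to exon 4 junction did (edgeR adjusted p = 0.0383).

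In reads per 1000000 the exon 2 to exon 3 junction was at 22.9, 24.95 and 23.1 in wild type, compared with 43.3, 31.7 and 45.8 in S34F. The skipping junction was at 11.5, 11.4 and 14.1 in wild type, compared with 8.99, 7.47 and 8.50 in S34F. Neither set of libraries overlapped, which was the case for 19.5% of all junctions tested. Junctions near the 3′ end were read more than those near the 5′ end: the wild-type mean was 51.2 ± 2.3 for exon 1 to exon 2 and 102 ± 5.9 for exon 11 to exon 12.

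**Figure D5:**
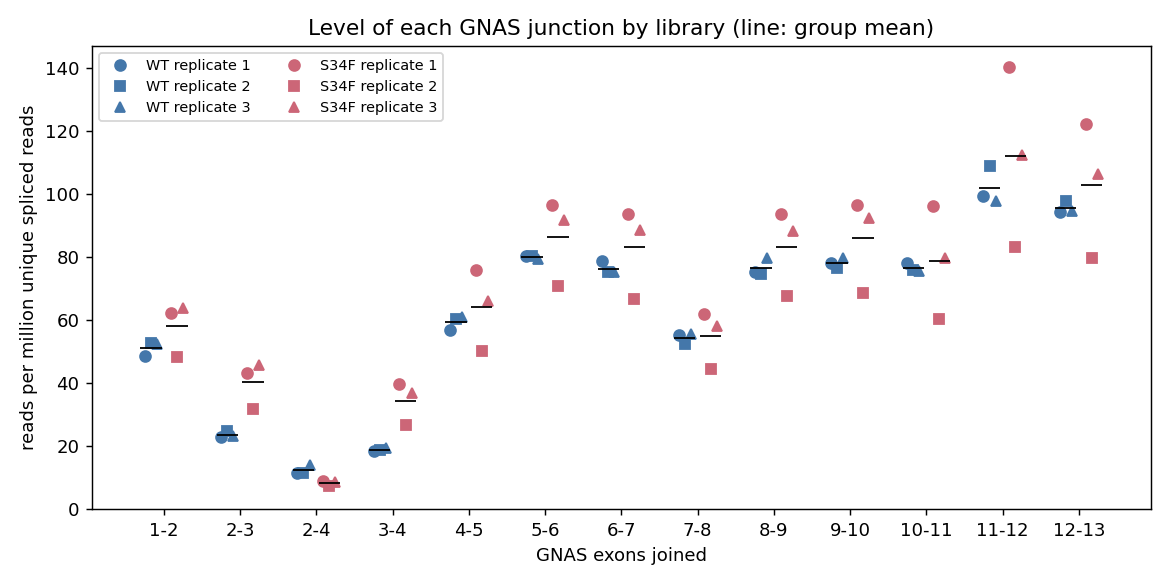
Reads per 1000000 unique spliced reads at each junction of the Gsα exon chain and at the exon 2 to exon 4 skipping junction, by library, with group means as lines (n = 3 each). S34F libraries are above wild type at the exon 2-3 and 3-4 junctions, below at 2-4, and span the wild-type values from exon 4 onwards.

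Splice sites elsewhere in the gene were used almost without alternatives. At the last exon, 9 reads over all libraries used acceptors other than 57485737. Exon 4 had 1 acceptor, with no other listed within 100 nt, so the serine-codon variation described at the start of exon 4 gave no value here. No pair of GNAS acceptors at most 100 nt apart had enough reads to be tested. Unannotated junctions numbered 31 with a unique read, 15 of them with a single read, and took 0.0846% ± 0.022 of GNAS reads in wild type and 0.0693% ± 0.012 in S34F, compared with 1.14% and 1.31% of the reads of all junctions. The GNAS groups overlapped (two-sided exact permutation p = 0.4, adjusted p = 0.6).

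Exons with inclusion levels closest to GNAS exon 3 were found by the root mean square difference over the 6 libraries among 8582 combinations with annotated junctions outside GNAS. The nearest in hg19, at 3.39 percentage points, was chr14:21731470-21731741 (272 nt, minus strand). Next came chrX:13721933-13722021 (89 nt, plus strand) at 3.80 and chr17:25928386-25928427 (42 nt, plus strand) at 3.93. Their differences were 13.1, 15.2 and 13.98 percentage points, each smaller than that of GNAS exon 3, and none passed in the same fit (edgeR adjusted p = 0.0817, 0.0846 and 0.127). Because they were picked for similar levels in these same 6 libraries, a rise of similar size follows from the choice. They are therefore no independent comparison.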

How the data were processed

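Poly(A)+ RNA of 6 K562 libraries was sequenced as paired-end reads, and STAR and hg19 are named in the submitters' processing notes; the STAR version, annotation and junction filters are not given in the sources used here. Each deposited table gives raw counts of unique and multi-mapped reads per junction, with no normalization visible, and the largest overhang. Junctions were matched between tables by position, and those missing from a table were counted as 0. Coordinates are 1-based intron or exon ends in hg19. Exons 1 to 13 and the A/B, XLαs and NESP55 regions were named from the order of junctions and general knowledge of the gene. Events with motif codes 1 to 6 were fitted over the whole genome with edgeR 4.0.16 (R 4.3.3), quasi-likelihood, robust, legacy mode: 2 counts per library, an intercept per library, and count type by S34F. The inclusion count was rounded to a whole number. Events needed 20 reads in every library and 10 on each side over the libraries (10 on each of 3 junctions for cassette exons of at most 500 nt). Standard errors were derived from each coefficient and its F statistic. Junction levels used TMM, filterByExpr and the group term. Levels per 1000000 reads are scaled by unique spliced reads. For single values, exact permutation tests (scipy 1.17.1, two-sided) were used, adjusted by Benjamini-Hochberg. Intervals are 95% Clopper-Pearson intervals and the limit for a count of 0 is 3 counts; both cover counting error only, since reads are not independent molecules. DESeq2 1.42.0, limma 3.58.1, other filters, multi-mapped reads and single libraries left out were the alternatives. Markers were read inside hg19 gene positions written from general knowledge. Named events were exon 3, each first exon, the exon 4 acceptors, up to 5 further calls and the 3 nearest exons elsewhere; the intron 3 acceptor and its 82 nt exon fall outside that rule and were chosen after their values were seen. Members, lists and tests were chosen with earlier results of these data known. The Gs pathway list, splice site sequences and proteins were not analysed here, since no annotation or genome of hg19 was used.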

Additional observations from a re-analysis of the deposited data

How the results depend on the processing

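Exon 3 inclusion kept its direction under the 16 alternative fits and call rules run, with log2 odds from 1.26 to 1.44, but its call did not always hold. The threshold was missed on all 6 libraries at log2 odds of 1.36 with the replicate block (edgeR adjusted p = 0.0655), 1.36 with no low-count filter (0.0561; 240353 combinations tested) and 1.35 with limma (0.123). At a minimum difference of 20 percentage points it was not called (log2 odds 1.36). Leaving out each library gave 1.26 to 1.44 (adjusted p from 0.00598 to 0.13). The exon 2 to exon 3 share of acceptor usage (log2 odds 1.33) was not called with DESeq2 (1.33), no low-count filter (1.33), limma (1.32) or the 20-point minimum (1.33), and ranged from 1.22 to 1.41 without single libraries (adjusted p from 0.00642 to 0.123). With all reads entering exon 2 as the base, an alternative added after the data were seen, the difference in exon 3 inclusion was 22.4 or 9.09 percentage points. The intron 3 acceptor stayed below wild type in its 14 alternatives (log2 odds -1.96 to -1.39), but missed the adjusted threshold in 6 of them. The exon 1 share and the exon 1 to exon 2 level passed under none of theirs. The A/B leading donor ranged from -0.36 to 0.077 without single libraries and reversed without wild-type replicate 1. Newer dispersion estimates, also added later, changed no call on exon 3, the acceptors or the first exons.

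Genome-wide counts of calls varied more: cassettes 0 to 1043 (main 528), acceptor usage 0 to 1932 (1088), donor usage 0 to 1210 (451) and junction levels 0 to 1467 (320). The lowest came from limma (unadjusted p under 0.05 for 4342 cassettes, 9648 acceptor and 7794 donor junctions), from leaving out S34F replicate 3 (cassettes, 2567 with an unadjusted p under 0.05) or wild-type replicate 2 (levels, 11792), and the highest from leaving out wild-type replicate 1 or, for levels, from DESeq2. Same-numbered replicates did not deviate together (correlations -0.08 to -0.02 over cassettes), and no library correlated best with its own number, so the numbers were not taken as pairs; with the replicate block cassettes fell to 193 calls. The cause of these changes was not tested. No GNAS acceptor pair passed the filter of the competing acceptor class, and the combined exon 3 and exon 4 acceptor test gave no value. Depth limits the A/B, NESP55, XLαs and intron 3 results, which rest on 13 to 243 reads.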
